A study of Mus musculus with 6 samples.

Results

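The genes described here encode the proteins of the cytosolic ribosome, and they were followed in the livers of mice fed a high-fat, cholesterol-rich (HFC) diet. They were taken by name: a probe counted when the array annotation gives it a single gene symbol that starts with Rpl or Rps, goes on with a number and ends in at most a short suffix, or that is Rplp0, Rplp1, Rplp2 or Rpsa. This gave 74 probes for 68 genes, 42 of the large and 26 of the small subunit, out of 16887 named genes on the array. The naming pattern uses no expression value, but these genes were chosen as a set with earlier results of these data known. The kinases that also carry a Rps6 name fell outside the pattern, and Rplp2 and Rps27a were not analysed here.

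The ribosome joins a small subunit, which reads the messenger RNA, to a large subunit, which forms the peptide bonds. Its proteins are needed in near-equal numbers, and their messengers commonly begin with a stretch of pyrimidines (C and T) that lets the TOR kinase pathway control their translation together. Liver cells use many ribosomes because they make the plasma proteins.

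Each array set liver RNA of 1 C57BL/6 mouse, aged 7 weeks, against 1 pool of liver RNA from 6 C57BL/6 mice of that age on chow. The 6 mice on the arrays had all eaten the HFC diet for 12 days. The HFC group (2 arrays) had the diet and, per the design text, vehicle from day 5. The lovastatin group (2 arrays) was given 30 mg/kg lovastatin, an inhibitor of cholesterol synthesis. The fenofibrate group (2 arrays) was given 100 mg/kg fenofibrate, an activator of the nuclear receptor PPARα. Both drugs were likewise given from day 5. One conflict in the labels bears on the lovastatin arrays: their titles say lovastatin, and were followed, while their protocol field speaks of fenofibrate. The pool is a single sample, so every comparison against it leaves out the spread between chow-fed mice.

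Cy5 marked the mouse RNA in the HFC and lovastatin groups, and Cy3 marked it in the fenofibrate group. Dye orientation and fenofibrate therefore cannot be told apart in any single gene. A dye-balanced contrast gave both orientations equal weight, with 0.25 of HFC, 0.25 of lovastatin and 0.5 of fenofibrate. The log base is not stated by the sources and was taken as 2, on which the fold values rest. All values are therefore given as log2 ratios of mouse over pool, so 0 is the level of the pool. That direction is likely but not stated by the sources. In the labels, channel 1 is the mouse on all 6 arrays. A repeated unnamed control spot reads below 0 on the Cy5-mouse arrays and above 0 on the Cy3-mouse arrays. It would do so where the ratio was turned with the dye, but for mouse over pool and pool over mouse alike. Cyp4a14, a PPARα target, read 2.98 and 2.54 on the fenofibrate arrays, against 1.28 on HFC replicate 1 and 2.29 and 1.94 on the lovastatin arrays. Cyp4a10 read 2.15 and 1.70 with fenofibrate, 1.01 and 0.58 with lovastatin and 0.49 and 0.55 in HFC.

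A large share of HFC replicate 2 is displaced: in alternate blocks of array columns the values sit on the wrong spots. Of the 74 ribosomal protein probes, 36 lie in these blocks, and their values on that array were left out. As a result 38 of the 68 genes have a value on HFC replicate 2, and the HFC level of the other 30 rests on 1 mouse. Each block was also moved back by the shift that best matched the mean of HFC replicate 1, lovastatin replicate 2 and both fenofibrate arrays. The shift was found on spots other than the ribosomal protein probes, and the move gave a value for 67 genes. Results with the blocks put back are given beside the counts and beside some of the genes they move. The arrays also differed in spread, with an SD over all probes of 0.419 to 1.09, lovastatin replicate 1 being the widest.

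The starts of 8 of the genes that the results turn on are shown first, as the 15 bases before and the first 15 bases of the RefSeq transcript start on the gene strand (GRCm38.p6), 5′ to 3′. Capitals mark the part of a run of at least 8 consecutive C or T bases that falls in the window.
Rps6 (chr4:86857353-86857382, minus strand): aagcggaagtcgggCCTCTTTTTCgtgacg
Rps12 (chr10:23787195-23787224, minus strand): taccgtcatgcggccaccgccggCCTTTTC
Rpl13a (chr7:45128731-45128760, minus strand): gaaaccctgcgacaagaCCTCCTCCTTTCC
Rps18 (chr17:33955651-33955680, minus strand): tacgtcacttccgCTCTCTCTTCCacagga
Rpl22l1 (chr3:28805493-28805522, plus strand): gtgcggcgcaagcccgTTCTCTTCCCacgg
Rpl26 (chr11:68901551-68901580, plus strand): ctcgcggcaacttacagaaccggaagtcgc
Rpl36a (chrX:134585639-134585668, plus strand): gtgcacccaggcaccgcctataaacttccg
Rpl6 (chr5:121204486-121204515, plus strand): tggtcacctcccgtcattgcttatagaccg
The first 5 hold such a run within 20 bases of the start, of 10, 11, 14, 11 and 10 bases, and the last 3 do not. The runs of Rps12 and Rpl13a go on past the window.

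Of the 56 ribosomal protein genes with an entry in the promoter table, 30 (53.6%) had a run of at least 8 C or T near a start. A run counted when any part of it fell within 20 bases of the start, upstream or downstream, on the gene strand. Over all 27025 genes of the table the share was 23.7%, and over 69 mitochondrial ribosomal protein genes it was 24.6%. The 30 genes with a run and the 26 without one had the following medians. Those with a run read 0.305 and 0.18 on the HFC, 0.35 and 0.27 on the lovastatin and 0.065 and 0.055 on the fenofibrate arrays. Those without read 0.2975 and 0.12, 0.365 and 0.265, and 0.03 and 0.015. The widest gap was on HFC replicate 2, where 16 and 15 of these genes were in place. Which promoter a liver transcript starts from was not measured, and a missing run says only that these letters are not in this window.

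On the HFC and lovastatin arrays most ribosomal protein genes lay above the pool, and on the fenofibrate arrays they lay around it. On HFC replicate 1 the median over the 68 genes was 0.31, with 64 genes above 0. On HFC replicate 2 the median of the 38 genes in place was 0.155, with 29 above 0. The lovastatin arrays gave 0.36 (62 of 68 above 0) and 0.265 (63 of 68). The fenofibrate arrays gave 0.03 (39 of 68) and 0.035 (40 of 68). Over all features the array medians ran from -0.02 to 0.03.

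**Figure D1:**
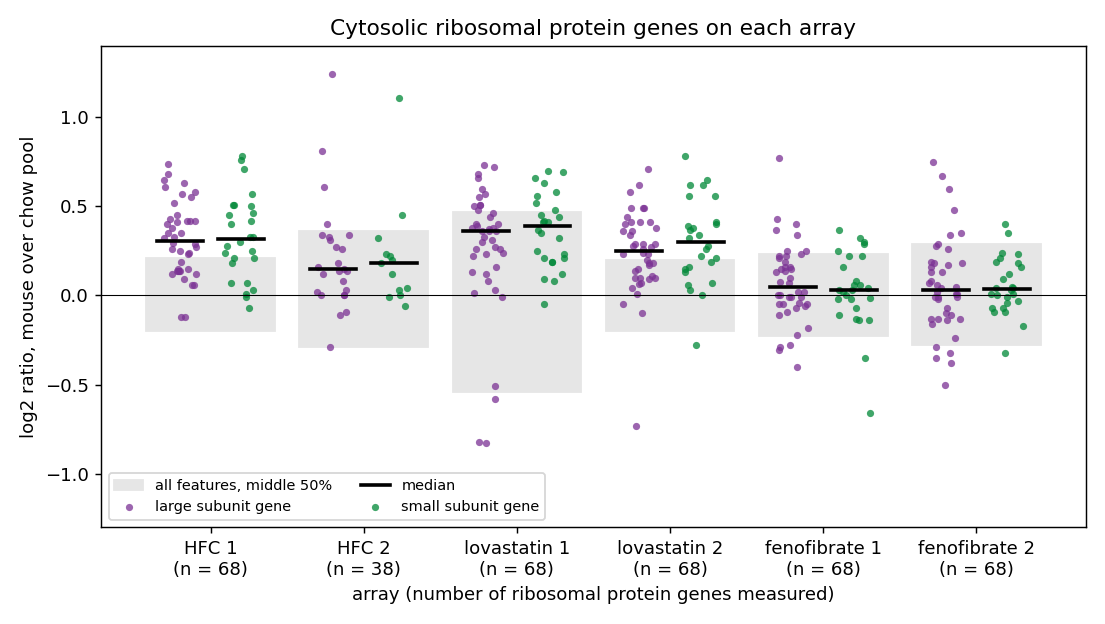
Log2 ratio of mouse over chow pool (y axis) of each cytosolic ribosomal protein gene on each of the 6 arrays (x axis), by subunit. Bars are medians and grey boxes the middle 50% of all features. Both subunits have medians between 0.15 and 0.39 on the HFC and lovastatin arrays and between 0.03 and 0.045 on the fenofibrate arrays.

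The 2 HFC mice stood at different heights. For the 38 genes measured in place on both arrays, the median was 0.325 on replicate 1 and 0.155 on replicate 2. The 29 genes that could only be read after the blocks were put back gave 0.29 and 0.14. Reading replicate 2 exactly as deposited also gave a median of 0.155, but with 46 of 68 genes above 0 and a lowest value of -1.09, against 52 of 67 and -0.71 with the blocks put back.

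The subunits lay side by side. Large subunit genes had medians of 0.3075, 0.15, 0.36, 0.25, 0.045 and 0.03 on the HFC, lovastatin and fenofibrate arrays in turn. Small subunit genes had 0.315, 0.18, 0.39, 0.30, 0.03 and 0.035. Each of these pairs lies closer together than the 2 HFC mice do. The middle 50% of the ribosomal protein genes was narrower than that of all features, most so on the widest array. On lovastatin replicate 1 it spanned 0.205 to 0.485, against -0.54 to 0.47 for all features. On HFC replicate 1 the 2 were closer in width, at 0.1475 to 0.4525 against -0.20 to 0.21. Ratios of 2 colours carry no level per gene here, so no order of abundance among the proteins is given.

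In the gene-by-gene test, no ribosomal protein gene passed. With limma's moderated test and Benjamini-Hochberg adjustment over all features, 0 of 68 had an adjusted p under 0.05 in any of the 7 comparisons. Over all features the same rule called 0.566% in the dye-balanced contrast, 0.0616% for fenofibrate against the pool and 0.0% in the other 5. The intervals show what could be seen. The median 95% interval of a ribosomal protein gene reached 0.3212 on either side in the dye-balanced contrast. Against the pool it reached 0.6113 for HFC, 0.4932 for lovastatin and 0.4929 for fenofibrate, and it reached 0.8326 for fenofibrate against HFC. The medians of the ribosomal protein genes are smaller than these, so they describe many genes on 6 arrays and are no call on any one gene.

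With both dye orientations weighted equally, 62 of 68 genes had a dye-balanced value above 0 (51.1% of all features), with a median of 0.1819 and quartiles of 0.1056 and 0.2469. The median over all features was 0.0075. At an unadjusted p under 0.05, 6 genes were higher (background 5.19%) and 0 lower (5.64%). The 6 were Rps6, Rpl36a, Rps12, Rps27l, Rpl39 and Rpl13.

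Rps6, the small subunit protein that S6 kinase phosphorylates downstream of TOR, had the smallest p. It read 0.33 and 0.32 in the HFC mice, 0.69 and 0.65 with lovastatin and 0.29 and 0.19 with fenofibrate. All 6 mice lay above the pool, the lovastatin mice highest and apart from the other 4. Its dye-balanced value was 0.37 (SE 0.10), or 1.29-fold, with an adjusted p of 0.278 by limma.

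Rps12, a small subunit protein measured by 2 probes, had the highest dye-balanced value with the displaced spots left out, 0.445 (SE 0.13, adjusted p = 0.356 by limma). Once the blocks were put back it was 0.39, below Rpl36a at 0.42. It read 0.71 in HFC replicate 1, 0.70 and 0.78 with lovastatin and -0.02 and 0.35 with fenofibrate. Both its probes are displaced on HFC replicate 2, where the probe that could be put back read 0.26. On the arrays in place the HFC and lovastatin mice lay above both fenofibrate mice. The value put back lay between the fenofibrate averages over both probes. On its own probe the fenofibrate mice read -0.03 and 0.13, both below it.

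Rpl39, a small protein that lines the exit tunnel of the large subunit, read 0.74 and 0.34 in HFC, 0.24 and 0.23 with lovastatin and 0.19 and 0.34 with fenofibrate. Its dye-balanced value was 0.33 (SE 0.11, adjusted p = 0.398 by limma), and the fenofibrate mice overlapped or touched both other groups, while both HFC mice lay above both lovastatin mice. Rpl13, a large subunit protein, read 0.58 and 0.08, 0.26 and 0.41, and 0.40 and 0.26 in the same order. Its group means of 0.33, 0.335 and 0.33 were almost equal, and its dye-balanced value was 0.33 (SE 0.12, adjusted p = 0.424 by limma).

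At the other end, 6 genes had a dye-balanced value below 0, and the lowest 5 were Rpl35a, Rpl14, Rpl23, Rps2 and Rps27. Their values ran from -0.08 to -0.06, each well inside its interval. Rpl14 read -0.12 in HFC replicate 1, -0.82 and 0.10 with lovastatin and 0.34 and -0.13 with fenofibrate. Rps2 read -0.01, 0.09 and -0.28, and 0.03 and -0.17 in the same order. Both genes straddled the pool in each drug group. With the blocks put back Rpl14 read -0.71 on HFC replicate 2 and had the lowest dye-balanced value, -0.14, while Rpl23 lay at 0.0094.

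**Figure D2:**
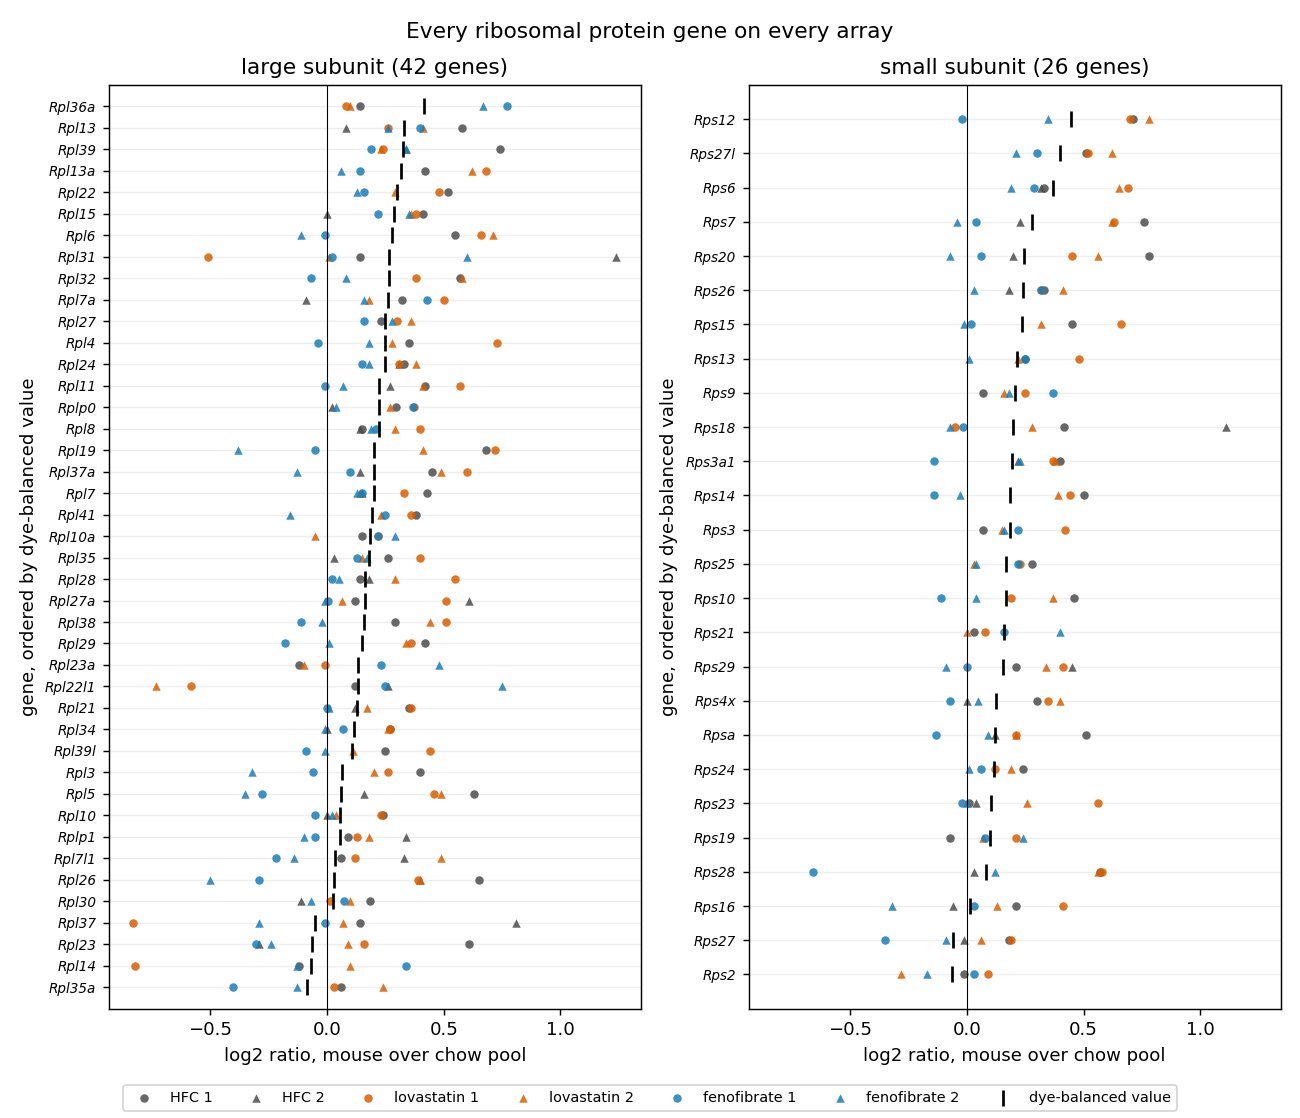
Log2 ratio of mouse over chow pool (x axis) of every gene (y axis, large subunit on the left and small on the right, ordered by dye-balanced value). Colours are groups, circles are replicate 1, triangles replicate 2 and black ticks the dye-balanced value, which runs from 0.445 (Rps12) to -0.08 (Rpl35a).

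Counted array by array, 49 of the 68 genes (72.1%) were above 0 on every HFC and lovastatin array measured, against 17.1% of all features, and Rpl23a alone was below 0 on all of them (background 16.1%). With the blocks put back, 47 were above 0, against 14.2% of all features, and Rpl23a no longer was below on all, at 0.03 on HFC replicate 2. On all arrays measured, fenofibrate included, 20 genes (29.4%) were above 0 against 7.32% of all features, and 0 were below (7.11%). The 20 include Rplp0, a stalk protein used widely as a reference gene, and Rps3, Rps6, Rps9, Rpl7, Rpl8 and Rpl24. Put back, the count was 17, against 6.28% of all features. The 3 genes lost were Rplp0, Rps9 and Rpl13a, which then read -0.02, -0.11 and -0.33 on HFC replicate 2.

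Against the pool, the HFC group had a median of 0.285 over the 68 genes, with 64 above 0 (background 51.1%). Without HFC replicate 1 the median was 0.155 over the 38 genes that remain, since 30 genes rest on that mouse alone. At an unadjusted p under 0.05, 3 were higher (background 2.29%) and 0 lower (2.44%). Rpl26, which sits by the exit tunnel, read 0.65 and 0.40, a mean of 0.525 ± 0.177 (SD, n = 2). Its adjusted p was 0.983 by limma. Rpl39 had a mean of 0.54 ± 0.283 (SD, n = 2) and an adjusted p of 0.984 by limma. Rps7 read 0.76 and 0.23, and Rps20 read 0.78 and 0.20, both with an adjusted p of 1.0 by limma.

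The largest HFC value was that of Rps18, at 0.76 (SE 0.23, adjusted p = 0.971 by limma), and it does not describe the gene well. Rps18 has 2 probes that disagree. The probe whose accession is a RefSeq transcript read 0.80 in HFC replicate 1, 0.61 and 0.60 with lovastatin and -0.31 and -0.48 with fenofibrate. The other read 0.03, -0.71 and -0.04, and 0.28 and 0.34. HFC replicate 2 has only that second probe in place, at 1.11, while the first read 0.13 when put back. Rpl23 disagreed to a like degree, by a mean of 0.798 between its probes against 0.828 for Rps18. Of the other genes with 2 probes, Rpl27a differed by 0.564, Rpl30 by 0.386, Rplp0 by 0.216 and Rps12 by 0.156. The probes of Rpl23, Rpl27a and Rpl30 lay on opposite sides of 0 in HFC replicate 1 and on both lovastatin arrays. Rpl27a, whose average was above 0 on those arrays, read -0.18, -0.08 and -0.33 there on its RefSeq probe.

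With lovastatin the median was 0.3137, with 62 of 68 genes above 0 (background 48.8%). At an unadjusted p under 0.05, 9 were higher (background 4.62%) and 1 lower (5.96%), and the lowest adjusted p was 0.415 by limma, for Rps6. Rps6 had a mean of 0.67 ± 0.0283 (SD, n = 2). Rpl6, a large subunit protein, read 0.66 and 0.71, and Rps12 0.70 and 0.78. Rpl13a, a large subunit protein that also takes part in interferon-induced translational silencing, read 0.68 and 0.62, and its value put back on HFC replicate 2 was -0.33. The adjusted p of these 3 was 0.438 by limma. In each of the 4 genes the 2 mice lay within 0.08 of each other.

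Lovastatin minus HFC, the comparison within one dye orientation, had a median of 0.035, with 43 of 68 genes above 0 (background 48.5%). At an unadjusted p under 0.05, 0 genes were higher (background 0.59%) and 1 was lower (1.41%). That gene was Rpl22l1, described with its paralog below. Rpl37 (-0.855, SE 0.42) and Rpl31 (-0.94, SE 0.47) came next, both with an adjusted p of 0.972 by limma. Rpl31 read 0.14 and 1.24 in HFC and -0.51 and 0.01 with lovastatin, and Rpl37 read 0.14 and 0.81 against -0.83 and 0.07. HFC replicate 2 and lovastatin replicate 1 were the arrays that stood apart. Without HFC replicate 2 the differences were -0.52 for Rpl37 and -0.39 for Rpl31, and without lovastatin replicate 1 they were -0.405 and -0.68.

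With fenofibrate the median was 0.03, and 39 of 68 genes were above 0 (background 49.3%). On both arrays 28 genes (41.2%) were above 0, against 30.2% of all features, and 15 (22.1%) were below, against 30.1%. At an unadjusted p under 0.05, 1 was higher (background 3.85%) and 0 lower (3.78%). The 1 was Rpl36a, a large subunit protein encoded on the X chromosome. It read 0.77 and 0.67 with fenofibrate, a mean of 0.72 ± 0.0707 (SD, n = 2) or 1.65-fold, with an adjusted p of 0.477 by limma. In HFC replicate 1 it read 0.14 and with lovastatin 0.08 and 0.10, so the fenofibrate mice lay well above the other 3.

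Below the pool with fenofibrate were Rpl26 at -0.29 and -0.50 and Rpl5 at -0.28 and -0.35. Rpl5 binds the 5S RNA together with Rpl11, and free of the ribosome both bind Mdm2. Rpl11 read -0.01 and 0.07. Rpl23a, which lies at the exit of the tunnel, was at 0.23 and 0.48 with fenofibrate and at -0.12, -0.01 and -0.10 on the HFC and lovastatin arrays in place.

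Fenofibrate minus HFC had a median of -0.27, with 15 of 68 genes above 0 (background 47.9%). Fenofibrate minus lovastatin had a median of -0.255, with 12 above 0 (49.8%). These comparisons share the fenofibrate mice and are not independent, and both are crossed with the dye. In 34 of 68 genes both fenofibrate arrays lay below every HFC and lovastatin array, against 13.0% of all features. In 3 genes, Rpl23a, Rpl36a and Rps21, both lay above (background 11.8%). With the blocks put back the first count was 32, against 11.2% of all features, and with HFC replicate 2 as deposited it was 25, against 10.2%. In 58 of the 68 (85.3%) the Cy5-mouse arrays had the higher mean, against 52.1% of all features.

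At an unadjusted p under 0.05, 2 genes were lower with fenofibrate than with HFC (background 1.39%) and 0 higher (1.5%). Against lovastatin 3 were lower (1.99%) and 1 higher (3.56%). Rpl26 differed by -0.92 (SE 0.25, adjusted p = 1.0 by limma) from HFC and by -0.79 (SE 0.25, adjusted p = 0.70 by limma) from lovastatin. Its 4 HFC and lovastatin arrays read 0.39 to 0.65 and its fenofibrate arrays -0.50 and -0.29. Rpl5 differed by -0.71 (SE 0.27) and -0.79 (SE 0.27), with the 4 arrays at 0.16 to 0.63. Rpl6 read -0.01 and -0.11 with fenofibrate and 0.55, 0.66 and 0.71 on the other arrays in place. Rpl19, which bridges the subunits, read -0.05 and -0.38 against 0.68, 0.72 and 0.41. When put back, HFC replicate 2 read 0.26 for Rpl6 and 0.21 for Rpl19, still above both fenofibrate arrays.

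**Figure D3:**
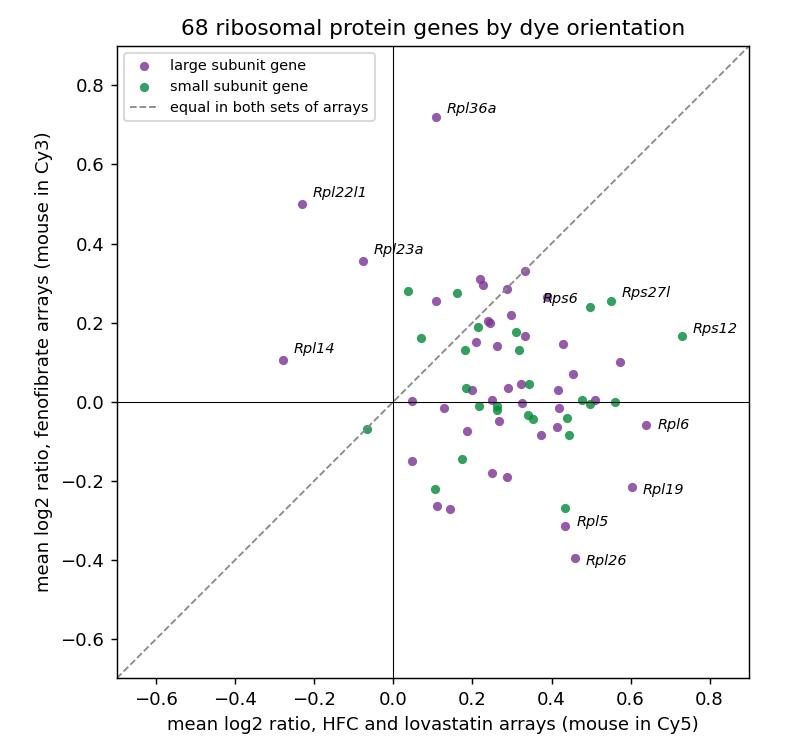
Each ribosomal protein gene by its mean log2 ratio on the HFC and lovastatin arrays (x axis, mouse in Cy5) and on the fenofibrate arrays (y axis, mouse in Cy3). Of the 68 genes, 58 lie below the dashed line of equal values (52.1% of all features), and Rpl36a, Rpl22l1 and Rpl23a are the ones farthest above it.

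Above 0 on every HFC and lovastatin array measured and below 0 on both fenofibrate arrays were 11 genes (16.2%), against 3.35% of all features. Of these, 10 were among the 42 large subunit genes (Rpl3, Rpl5, Rpl6, Rpl7l1, Rpl19, Rpl26, Rpl35a, Rpl38, Rpl39l and Rplp1) and 1 among the 26 small subunit genes (Rps14). After putting the blocks back the count was again 11, against 2.72% of all features, with Rpl23 in place of Rpl35a, which then read -0.07 on HFC replicate 2. Rpl23 entered through its probe without a RefSeq transcript accession, at 1.52 and 0.90 (put back) in HFC and 0.35 and 0.51 with lovastatin. Its RefSeq probe read -0.30, -0.29, -0.03 and -0.33 on those arrays. With the displaced spots left out, the reverse held for Rpl23a alone (background 3.24%). Put back, Rpl23a read 0.03 on HFC replicate 2, so the reverse no longer held for it. Whether the shift between the HFC and lovastatin arrays and the fenofibrate arrays comes with the drug or with the dye cannot be told apart.

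Some ribosomal proteins have a paralog, and 5 such pairs were measured. In Rpl22 and Rpl22l1 the gap was widest on the lovastatin arrays. Rpl22 read 0.52 in HFC replicate 1, 0.48 and 0.29 with lovastatin and 0.16 and 0.13 with fenofibrate. Rpl22l1 read 0.12 and 0.26 in HFC, -0.58 and -0.73 with lovastatin and 0.25 and 0.75 with fenofibrate. The lovastatin mice were the only ones below the pool and lay apart from all others. Rpl22l1 had the smallest p of the 68 in lovastatin against HFC (-0.845, SE 0.28, adjusted p = 0.972 by limma) and in fenofibrate against lovastatin (1.155, SE 0.28, or 2.23-fold, adjusted p = 0.70 by limma). Against the pool the lovastatin mean was -0.655 ± 0.106 (SD, n = 2), with an adjusted p of 0.438 by limma, and HFC and lovastatin shared the dye orientation.

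Rpl36a and Rpl36al ran opposite ways. Rpl36al, which the naming pattern did not take in, read 0.61 and 0.35 in HFC, 0.44 and 0.74 with lovastatin and 0.09 and -0.12 with fenofibrate. Rpl36a, by contrast, read 0.08 to 0.14 in the HFC and lovastatin mice and 0.67 and 0.77 with fenofibrate. The 2 genes encode near-identical proteins, and whether each probe reads only its own transcript was not tested.

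Rps27 and Rps27l, a paralog known as a p53 target, lay apart on every array measured. Rps27l read 0.51 in HFC replicate 1, 0.52 and 0.62 with lovastatin and 0.30 and 0.21 with fenofibrate. Rps27 read 0.18 and -0.01, 0.19 and 0.06, and -0.35 and -0.09. The dye-balanced value of Rps27l was 0.40 (SE 0.12, adjusted p = 0.366 by limma) and that of Rps27 was -0.06 (SE 0.11, adjusted p = 0.879 by limma). When put back, HFC replicate 2 read 0.05 for Rps27l.

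Rpl7 read 0.43 and 0.15, 0.33 and 0.14, and 0.15 and 0.13 in the HFC, lovastatin and fenofibrate mice, and Rpl7l1 read 0.06 and 0.33, 0.12 and 0.49, and -0.22 and -0.14. Rpl39l, known mainly from testis, read 0.25 in HFC replicate 1, 0.44 and 0.11 with lovastatin and -0.09 and -0.01 with fenofibrate, while Rpl39 stayed above 0 throughout. Without the 4 paralogs the medians of the remaining 64 genes were 0.325, 0.145, 0.36, 0.265, 0.03 and 0.035.

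**Figure D4:**
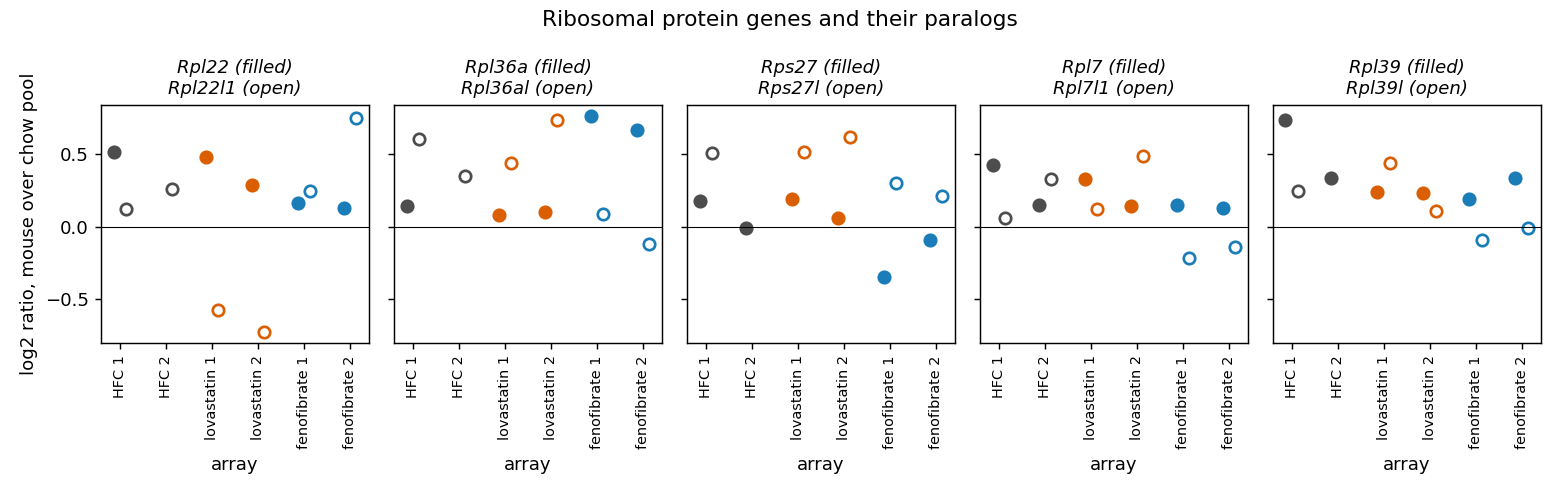
Log2 ratio of mouse over chow pool (y axis) on each array (x axis) for 5 pairs of a ribosomal protein gene (filled) and its paralog (open), coloured by group. Displaced spots of HFC replicate 2 are not drawn, and Rpl22l1 is at -0.58 and -0.73 on the lovastatin arrays and at 0.12 to 0.75 elsewhere.

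Proteins with known roles in the ribosome's work gave the following values. Rplp0 and Rplp1 form part of the stalk that recruits the elongation factors. Rplp0 read 0.295 and 0.02, 0.375 and 0.27, and 0.37 and 0.04. Rplp1 read 0.09 and 0.34, 0.13 and 0.18, and -0.05 and -0.10. Rpl3 and Rpl10 lie close to the catalytic centre. Rpl3 read 0.40 in HFC replicate 1, 0.26 and 0.20, and -0.06 and -0.32. Rpl10 read 0.24 and 0.00, 0.23 and 0.04, and -0.05 and 0.02.

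Rpsa, also known as a laminin receptor, read 0.51 and 0.12 in HFC, 0.21 and 0.21 with lovastatin and -0.13 and 0.09 with fenofibrate. Rps4x, the X-linked small subunit protein, read 0.30 and 0.00, 0.35 and 0.40, and -0.07 and 0.05. The dye-balanced values of these 6 genes lay between 0.055 and 0.2225, with adjusted p from 0.573 to 0.886 by limma. Rps28 had the widest gap between mice of one group on the fenofibrate arrays, at -0.66 and 0.12, against 0.57 and 0.03 in HFC and 0.58 and 0.56 with lovastatin.

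The other genes of ribosome production and use, in lists drawn up with earlier results of these data known, gave these values. None of them passed the adjusted threshold in the dye-balanced contrast. Mitochondrial ribosomal protein genes make the separate ribosome of that organelle. Their medians over 75 genes were -0.02, -0.03 (29 genes in place), -0.01, 0.02, 0.10 and 0.01. Ribosome biogenesis factors, which process ribosomal RNA and assemble the subunits, had medians over 69 genes of 0.28, 0.285 (36 genes in place), 0.00, 0.30, 0.07 and 0.10. They lay above 0 on the same arrays as the ribosomal protein genes, except on lovastatin replicate 1.

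In the dye-balanced contrast the ribosome biogenesis list had a median of 0.1737, with 53 of 69 above 0 (background 51.1%). Nhp2, a subunit of the box H/ACA particles that modify ribosomal RNA, was above the pool on every array, from 0.55 to 0.87. Its value was 0.77, with an adjusted p of 0.077 by limma. Rcl1, a processing factor of the small subunit, was below on every array measured, from -1.04 to -0.39. RNA polymerase I genes, which transcribe the ribosomal RNA, had a median of 0.14 (12 of 19 above 0, background 51.1%). Polr1b, a core subunit and their gene of smallest p, read from -0.10 to 0.68.

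Translation initiation factors had a dye-balanced median of 0.1169 (28 of 32 above 0, background 51.1%). Elongation factors with other pyrimidine-tract messengers had 0.1075 (11 of 15, same background). Eif3a, a scaffold of initiation factor eIF3, had a value of 0.54 and Pabpc1, the poly(A)-binding protein, 0.515. Genes of the TOR signalling to translation list, which also holds Myc, Mycn and Max, had a median of 0.035 (14 of 27 above 0, near the background of 51.1%). Among them Pdcd4, an inhibitor of the helicase eIF4A, was below the pool in all 6 mice, from -0.72 to -0.40. Importins, assembly chaperones and ubiquitin fusions had a median of 0.2138 (11 of 13 above 0, background 51.1%). Their gene Ipo4 read from 0.32 to 0.59.

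**Figure D5:**
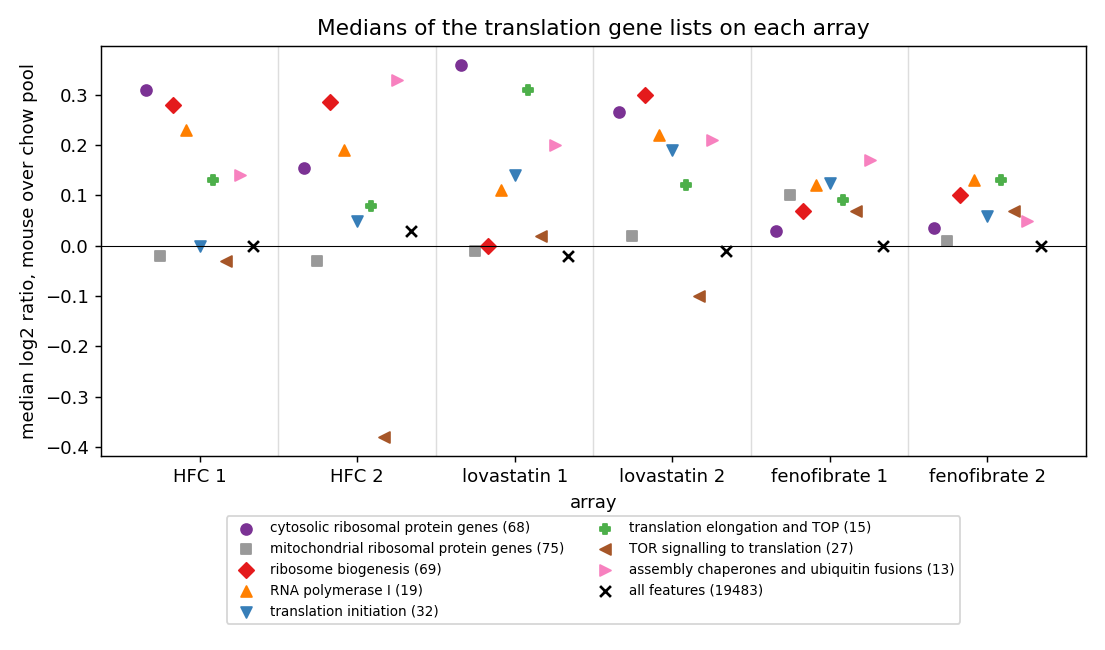
Median log2 ratio of mouse over chow pool (y axis) on each array (x axis) for the cytosolic ribosomal protein genes, 7 other gene lists and all features, with the number of genes in brackets. The ribosomal protein medians are 0.155 to 0.36 on the HFC and lovastatin arrays and 0.03 and 0.035 on the fenofibrate arrays, and the mitochondrial ones stay between -0.03 and 0.10.

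These are whole-liver samples, where more cells of a type and more RNA per cell cannot be told apart. A ratio to a liver pool cannot show whether the defining genes of liver were present, so the tissue label was not checked. Marker lists of the cells a liver holds had the following medians on HFC replicate 1, lovastatin 1 and 2, and fenofibrate 1 and 2. The median of 7 hepatocyte markers was -0.53, -0.59, -0.64, -0.63 and -1.05. That of 7 proliferation markers was 0.45, -0.21, 0.93, 0.87 and 1.18. That of 10 lymphocyte markers was -0.26, -0.385, -0.0025, -0.21 and -0.21, and that of 10 macrophage markers was -0.07, 0.095, 0.05, -0.335 and -0.65.

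Erythroid markers (4 genes) had medians of -0.09, -0.045, -0.26, 0.115 and -0.35. Cholangiocyte markers (4) had 0.135, -0.345, -0.08, 0.005 and -0.23, and endothelial and stellate markers (6) had -0.125, 0.175, 0.15, -0.06 and -0.305. The macrophage median, like that of the ribosomal protein genes, was lower on both fenofibrate arrays than on the other 3. The proliferation median was higher on both fenofibrate arrays than on HFC replicate 1. On HFC replicate 2 the hepatocyte median was -0.34 (5 genes in place), the proliferation median 0.31 (4), the macrophage median 0.06 (7) and the lymphocyte median -0.005 (6). The endothelial and stellate median was 0.90 there (4 genes, all above 0), the erythroid median 0.645 (2) and the cholangiocyte median 0.45 (3), each the highest of the 6 arrays. Their part in the ribosomal protein values was not tested.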

How the data were processed

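Per the labels, each of 6 arrays (2 a group) compared a separate mouse with the pool, from 0.5 µg of RNA per dye. The authors deposited 1 value per spot and array, read as a log2 ratio. The sources used here name neither the log base nor the scanner, the background correction or the normalization. Dim probes could not be filtered, and 6 arrays limit the precision.

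Of 22575 spots, 21288 probes were used. Probes of a gene were averaged, giving 19517 features (16887 genes and 2630 unnamed probes). Of the 68 genes, 66 matched RefSeq by Entrez number and all 68 by symbol. Group means were fitted with limma 3.58.1 in R 4.3.3 (residual degrees of freedom 3, prior 2.38). Calls were made at 0.05 after Benjamini-Hochberg adjustment across every feature. Put-back blocks were rotated along the array line. The shift kept was the one of highest correlation with the mean of HFC replicate 1, lovastatin replicate 2 and both fenofibrate arrays. A rise was therefore fixed in advance. Correlations went from between -0.034 and 0.027 to between 0.297 and 0.314, and the second-best shift gave 0.024 to 0.046.

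Tested on simulated data, the dye-balanced fit recovered 40% of changes of 1 log2 unit and 97.3% of changes of 2. HFC against the pool recovered 1.33% and 41.3%, and fenofibrate against HFC 0% and 6.67%. The simulated noise had the same spread for a gene on every array, while the real arrays differ in spread. It held no dye effect and no error shared through the pool, so recovery with these was not tested.

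The members and lists were chosen with earlier results of these data known. Named genes are, per comparison, the 5 of smallest p (none passed), the 5 highest and 5 lowest dye-balanced, a set of core proteins and the paralogs, and up to 4 genes of smallest p from the other lists. Rpl11, Rpl24, Rpl38, Rps3, Rps9, Rps14, Rps21, Rps28 and other genes counted by name were named after their values were seen. Other settings were values as deposited or put back, median centring, 1 spread for all arrays, quantile normalization, single probes, a replicate block, the compared arrays alone, and leaving out each array. Leaving out an HFC array with the blocks put back was added after seeing the data. Tools were Python 3.11.15, pandas 2.3.3, matplotlib 3.10.9 and statmod 1.5.0.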

Additional observations from a re-analysis of the deposited data

How the results depend on the processing

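The count of ribosomal protein genes past the adjusted threshold was 0 in all 7 comparisons under each of the 16 other settings run, except that the dye-balanced contrast uses all arrays and has no fit of the compared arrays alone. Their named values under those settings numbered 805, of which 793 kept their direction and side of the threshold, and the lowest adjusted p by limma was 0.0816. The other 12 reversed, all in genes within 0.1 of 0. As deposited, Rps2 read 0.005, Rpl14 0.0275 and Rpl3 -0.1237 in the dye-balanced contrast. With the blocks put back Rpl23 read 0.0094, and with quantile normalization Rpl14 read 0.0044. Leaving out 1 array at a time gave -0.1775 to 0.0475 for Rpl23, -0.185 to 0.05 for Rpl14 (0.0475 without lovastatin replicate 1), -0.0025 to 0.1275 for Rpl3, -0.0112 to 0.0813 for Rpl7l1 and -0.1225 to 0.0075 for Rps27. With the blocks put back, Rpl23 without HFC replicate 2 read 0.0475. The HFC median over the ribosomal protein genes was 0.155 to 0.31 with 1 array left out, and 0.15 put back without HFC replicate 1. The fenofibrate median was 0.03 to 0.035.

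Counts of all features past the threshold moved more. HFC against the pool went from 0 to 3 put back, 9 with quantile normalization and 0 to 6 with an array left out. Lovastatin went from 0 to 2, 4 and 0 to 4016, the last without lovastatin replicate 2. Fenofibrate went from 12 to 32 put back and to 0 with arrays scaled to one spread, single probes, the replicate block or the compared arrays alone. It gave 0 to 26 with an array left out, and 0 with the blocks put back and HFC replicate 1 or 2 left out. The dye-balanced count of 110 became 67 as deposited, 190 put back, 31 scaled, 196 with quantile normalization, 0 with the replicate block, and 9 and 25 put back without HFC replicate 1 and 2. It was 0 to 966 with an array left out, 0 without fenofibrate replicate 1 or 2, 5 and 25 without HFC replicate 1 and 2, 228 without lovastatin replicate 1 and 966 without lovastatin replicate 2. With an array left out, lovastatin against HFC gave 0 to 1401 and fenofibrate against lovastatin 0 to 2235, both highest without lovastatin replicate 2. The lone array of a group was then assumed to vary like the other groups. Same-numbered arrays deviated from their group means with correlations of -0.015 to 0.0301, which gave no sign that the replicate numbers pair the mice. With 2 arrays a group these correlations cannot exclude pairing. The block changed no call on a ribosomal protein gene.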
